A study of Drosophila melanogaster with 4 samples.

Results

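Genes for odorant-binding proteins and for the odorant, gustatory and ionotropic receptors of chemosensory neurons were examined in heads of adult Drosophila melanogaster males fed pilocarpine. They were chosen by their current NCBI symbol, which had to start with Obp, or with Or, Gr or Ir followed directly by a digit, and by a value on at least 3 of the 4 arrays. This gave 10 of the 1444 genes measured on at least 3 arrays, on 15 of 3216 probes: 8 odorant-binding protein genes on 13 probes, the odorant receptor gene Or33a and the ionotropic receptor gene Ir47a. No gustatory receptor gene had a value. Unmated Oregon-R wild-type males, 3 to 4 days old at the start and kept 30 to a vial, received either normal food or food with pilocarpine at 1.5 mg/ml for 7 days; this drug activates muscarinic acetylcholine receptors. All flies of both groups had been sexed under diethyl ether. Heads were broken off frozen flies and collected by sieving, and RNA was taken from 8 pools of heads, each from several vials. Each two-colour cDNA array carried 1 treated and 1 untreated pool of the same parallel set, so the 4 arrays are the 4 replicates. Treated RNA carried Cy5 on replicates 1 and 2 and Cy3 on replicates 3 and 4.

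Odorant-binding proteins are small secreted proteins that support cells release into the lymph around olfactory and taste neurons, where they bind hydrophobic ligands. Odorant receptors form ion channels together with the co-receptor Orco, ionotropic receptors descend from glutamate receptors, and gustatory receptors detect sugars, bitter compounds and carbon dioxide. On the fly head these proteins are found in the antennae, the maxillary palps and the proboscis, and several odorant-binding proteins are also made outside chemosensory organs.

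Values are log2 ratios of the 2 channels of an array, minus the median of that array. The labels name the dye of each RNA but not the numerator of the ratio, so the means and tests of these genes are given in both possible directions. In the first, the ratio is Cy5 over Cy3, and the sign of replicates 3 and 4 is turned to give pilocarpine over normal food. In the second, the ratio is treated over untreated on every array, and the deposited sign stands. Neither direction is settled by the labels. For the 6 probes on all 4 arrays, with both dye orientations equally present, a mean in the wrong direction measures a dye effect. For the 9 probes on 3 arrays both orientations are present but unequally, so each mean mixes treatment and dye. A dye term was fitted only for probes on all 4 arrays, so no fit here separated treatment from dye for these 9. Spots with a value numbered 6257, 4428, 6392 and 5527 on replicates 1 to 4. A lower ratio in head RNA can come from fewer cells of a type or from less RNA per cell, which cannot be told apart in pooled heads.

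The listing of these families on the array was thin. The array's annotation listed 19 odorant-binding protein genes, 1 odorant receptor, 1 gustatory receptor and 3 ionotropic receptor genes, against 51, 59, 60 and 60 with such symbols in the RefSeq gene table used. Of these 24 listed genes 14 had no value on any array and none had a value on just 1 or 2 of them. By probe, 15 of the 37 listed for these genes had values on at least 3 arrays. Of all 7609 pairs of spots that the annotation names, 1504 with 1 gene and 12 with several did, a smaller share. Values on just 1 or 2 arrays were rare throughout, as 3216 of the 3236 probes with any value had one on at least 3 arrays. The authors carried forward spots usable on 3 arrays, and whether the values used here had already been selected in this way was not tested. A gene without a value is therefore not shown to be unexpressed. Among those without a value were Obp19a, Obp19b, Obp44a, Obp59a, Obp84a, all 4 listed Obp99 genes, Gr61a, Ir76a and Ir93a. The gene lush, an odorant-binding protein gene under another symbol, was listed and had no value either.

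Odorant-binding protein and receptor genes lay close to the bulk of the array in either direction, apart from 1 probe of Obp19c. None of the 15 probes passed the test, beside 0.0% of all 3216 probes in each direction of change (limma, Benjamini-Hochberg adjusted over all probes, threshold 0.05). In the Cy5 over Cy3 direction the adjusted p of the 15 probes lay between 0.884 and 0.992, and 1 of the 15 had an unadjusted p under 0.05, beside 5.41% of all probes. In the treated over untreated direction the adjusted p lay between 0.732 and 0.985, with 0 of 15 at an unadjusted p under 0.05, beside 6.0% of all probes. The median of the 15 mean log2 ratios was -0.03 in the first direction and 0.03 in the second, against 0.01 over all probes in each. The median SD over arrays was 0.35 and 0.30 for these probes, against 0.33 and 0.32 over all probes. With 4 arrays an exact sign-flip test of a single probe cannot give a p below 0.125, and with 3 arrays not below 0.25.

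**Figure D1:**
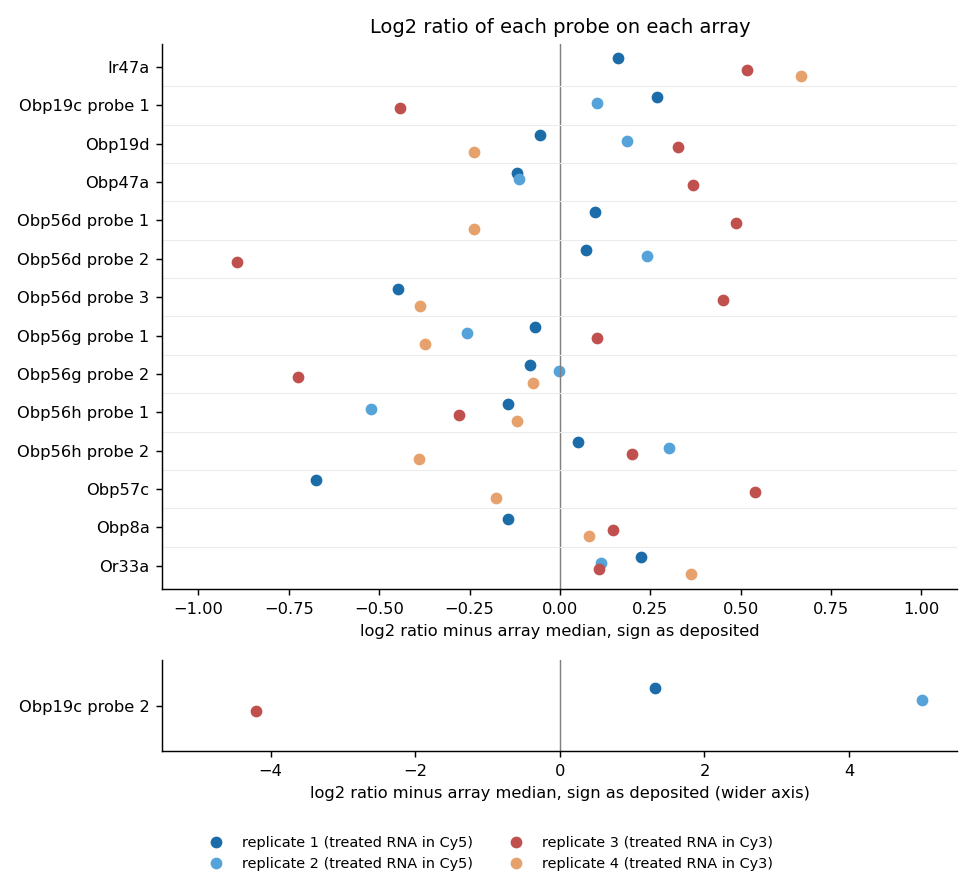
Log2 ratio minus the array median (x axis, sign as deposited) of each of the 15 probes, with 1 point per array and colour for the replicate. In the upper panel 14 probes lie between -0.89 and 0.67, while the second probe of Obp19c, in the lower panel with a wider axis, spans -4.21 to 5.01.

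Obp19c and Obp19d are direct neighbours in the RefSeq annotation. Obp19c has 2 probes on the array, and they gave very different ratios. Its first probe read 0.27, 0.10 and -0.44 on replicates 1, 2 and 3 as deposited, without a value on replicate 4. Its second probe read 1.32, 5.01 and -4.21 on the same arrays, and also lacked replicate 4. Both probes were thus above the array median on both arrays with treated RNA in Cy5 and below it on the dye-swapped array, at sizes that differed by 1.05, 4.90 and 3.76 on the log2 scale.

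Read as Cy5 over Cy3, the first Obp19c probe averaged 0.27 ± 0.17 on the log2 scale (n = 3, SD; adjusted p = 0.906 by limma) and the second 3.51 ± 1.94 (n = 3, SD; adjusted p = 0.884 by limma), each higher on 3 of 3 arrays. The mean of the second probe is a ratio of 11.4 and was the highest of all 3216 probes. In the treated over untreated direction the first probe was at -0.02 ± 0.37 (SD, n = 3) and the second at 0.70 ± 4.64 (SD, n = 3), the largest SD of all 3216 probes. The difference of the 2 probes, the first minus the second, was -3.24 ± 1.98 (SD, n = 3) in the Cy5 over Cy3 direction (exact sign-flip test, two-sided p = 0.25, the smallest that 3 arrays can give). With the deposited signs it was -0.73 ± 4.34 (SD, n = 3; exact sign-flip test, two-sided p = 0.75).

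Whether the second probe passed depended on which features were tested, which sets both the shared estimate of the spread and the adjustment of p. Among the 1504 probes with 1 listed gene alone it passed as higher in the Cy5 over Cy3 direction (limma adjusted p = 0.0127), with 0.199% of those probes called higher. The remaining ones were probes of apolpp, the lipid carrier apolipophorin of the haemolymph, and of trbd, named here after their values were seen. With both Obp19c probes averaged into 1 gene value, Obp19c averaged 1.89 ± 0.96 (n = 3, SD; adjusted p = 0.0274 by limma), beside 0.139% of 1444 genes called higher, the other being apolpp. This call ended without replicate 2 (1.56, limma adjusted p = 0.526) and without replicate 4, on which Obp19c has no value (1.89, limma adjusted p = 0.219). In the treated over untreated direction 0 of the listed probes passed (limma; 124 at an unadjusted p under 0.05), and the Obp19c gene value was at 0.34 ± 2.47 (SD, n = 3; limma adjusted p = 0.941).

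Every probe is printed as a pair of adjacent spots, and the large ratios of the second Obp19c probe rest on few of them. On replicate 1 its value comes from the first spot alone and on replicate 2 from the second spot alone, while on replicate 3 both spots had a value, at -4.37 and -4.04. Among probes with 1 listed gene, 5 of 5285 values came from a single spot (0.0946%), and 2 of those 5 belong to this probe. It was also the 1 probe of the 1504 with a listed gene that had a value beyond 4 in size on any array. Among the 1712 probes with no or several listed genes, 40 had such a value. Single spots gave 7.54% of all values of those 1712 probes, and 72 of the 145 values (49.7%) of the 40. What part the missing spots have in the ratio was not tested.

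The other 14 probes were measured with both spots on every array that had a value. Their paired spots differed by at most 0.561 on the log2 scale. The median difference of paired spots over all probes of the family was 0.0995, 0.138, 0.098 and 0.157 on replicates 1 to 4, against 0.110, 0.168, 0.118 and 0.125 for all probes with 1 listed gene. The range of a probe over its 3 or 4 arrays, with deposited signs, lay between 0.255 for Or33a and 1.21 for Obp57c among these 14. For the first Obp56h probe it was 0.405, less than the 0.561 between its own paired spots on 1 array.

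**Figure D2:**
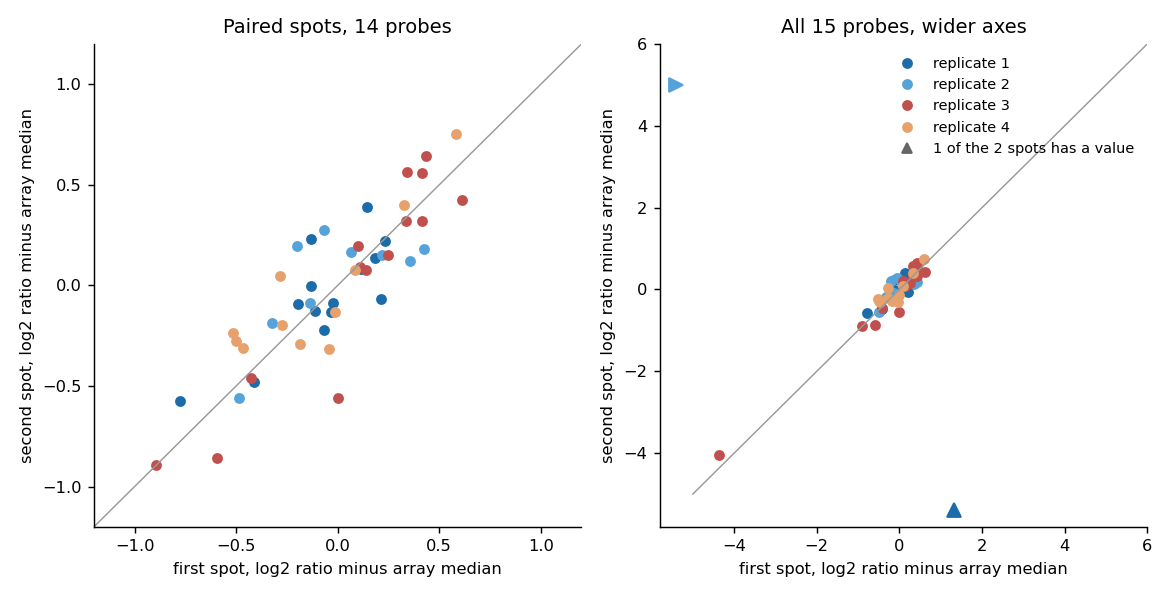
Log2 ratio minus the array median of the first (x axis) and the second (y axis) spot of each pair, for each array, with the line of equality. In the left panel the pairs of 14 probes lie within 0.561 of each other, and in the right panel triangles at the margin mark the 2 values of the second Obp19c probe, at 1.32 and 5.01, that come from 1 spot.

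Obp19d, also known as Pbprp2, is made in olfactory and taste organs. It was measured on all 4 arrays, at -0.05, 0.18, 0.33 and -0.24 as deposited, so the arrays fell on both sides of the median within each dye orientation. Its mean was 0.01 ± 0.26 in the Cy5 over Cy3 direction (SD, n = 4; limma adjusted p = 0.992, 95% interval -0.36 to 0.38) and 0.06 ± 0.25 in the other (SD, n = 4; limma adjusted p = 0.949, interval -0.30 to 0.41).

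Obp56d, Obp56g and Obp56h belong to a cluster of odorant-binding protein genes in which Obp56g and Obp56h are direct neighbours. Obp56g is also made in the male ejaculatory bulb, and Obp56h has been linked to male mating behaviour. Obp56d has 3 probes. The first read 0.10, 0.49 and -0.24 on replicates 1, 3 and 4, and the third -0.45, 0.45 and -0.39 on the same arrays. The second, which lacks replicate 4 and not replicate 2, read 0.07, 0.24 and -0.89 on replicates 1, 2 and 3. On replicate 3 the first and the third probe were thus above the array median and the second below it, by a difference of 1.38 between the first and the second probe.

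Read as Cy5 over Cy3, the 3 Obp56d probes had means of -0.05 ± 0.39, 0.40 ± 0.43 and -0.17 ± 0.48 (SD, n = 3 for each; limma adjusted p between 0.906 and 0.986). With the deposited signs they were at 0.12 ± 0.36, -0.19 ± 0.61 and -0.13 ± 0.50 (SD, n = 3 for each). Neither the size nor the sign of a difference in Obp56d was shared by its probes. Averaged into 1 gene value on 4 arrays, Obp56d was at 0.11 ± 0.20 and -0.04 ± 0.23 in the 2 directions (SD, n = 4). This average mixes different probes on different arrays. Its replicate 2 comes from the second probe alone, and its replicate 4 from the first and the third probe.

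The first probe of Obp56g read -0.07, -0.26, 0.10 and -0.37 on replicates 1 to 4, and the second -0.08, -0.0025, -0.725 and -0.07. Again replicate 3 set the probes of a gene apart, by 0.827. The means were -0.01 ± 0.27 and 0.18 ± 0.37 in the Cy5 over Cy3 direction and -0.15 ± 0.21 and -0.22 ± 0.34 in the other (SD, n = 4 for each). Without replicate 3 the second probe was at -0.0037 in the first direction.

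The first probe of Obp56h read -0.14, -0.52, -0.28 and -0.12, and was below the array median on all 4 arrays. Its mean was -0.27 ± 0.19 in the treated over untreated direction (SD, n = 4; limma adjusted p = 0.732, interval -0.58 to 0.05; exact sign-flip test, two-sided p = 0.125, the smallest that 4 arrays can give) and -0.07 ± 0.35 in the other (SD, n = 4). The second Obp56h probe did not share this, at 0.05, 0.30, 0.20 and -0.39, with means of 0.04 ± 0.30 and 0.14 ± 0.27 (SD, n = 4 for each). The probes of Obp56h thus lay on opposite sides of 0 in both directions.

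Different probes of the same gene gave a general measure of how far a single probe can be read. Over the 6 pairs of probes of these 4 genes, the median absolute difference over shared arrays was between 0.151 for the first and the third probe of Obp56d and 3.76 for Obp19c, with a median of 0.539. Over all 62 such pairs of 58 genes on these arrays the median was 0.306. The Obp19c pair had the largest difference of all 62, followed by a pair of trbd at 1.19.

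**Figure D3:**
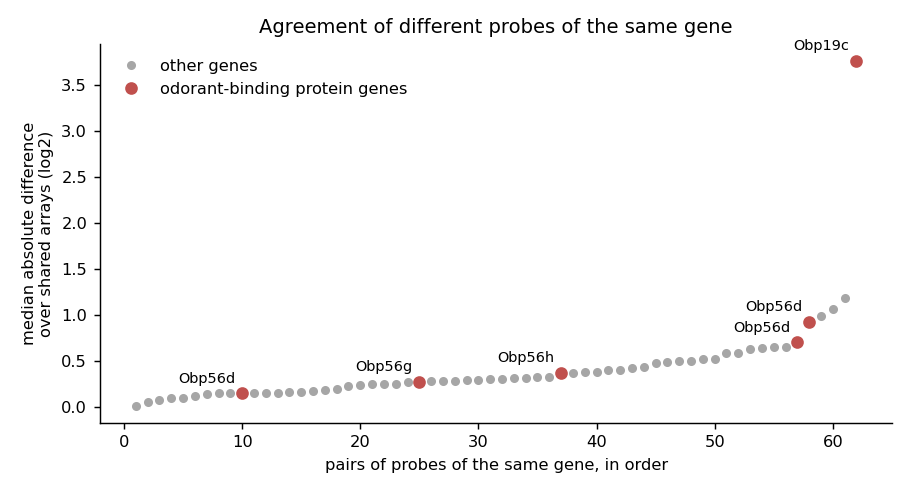
Median absolute difference between probes of the same gene over the arrays both share (y axis, log2 scale) for all 62 pairs of probes, in order of size (x axis), with odorant-binding protein genes in red. The pair of Obp19c, at 3.76, lies far above all others, and the pairs of Obp56d range from 0.151 to 0.931.

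Obp8a, Obp47a and Obp57c have 1 probe each and were measured on 3 arrays. Obp57c lies in a gene cluster expressed in taste organs. It read -0.68, 0.54 and -0.18 on replicates 1, 3 and 4, the widest spread of the 3 genes. Its mean was -0.35 ± 0.46 in the Cy5 over Cy3 direction (SD, n = 3; limma adjusted p = 0.906, interval -0.96 to 0.27) and -0.11 ± 0.61 in the other (SD, n = 3).

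Obp8a read -0.14, 0.15 and 0.08 on replicates 1, 3 and 4. With the swapped arrays turned these become -0.14, -0.15 and -0.08, with a mean of -0.12 ± 0.04 (SD, n = 3; limma adjusted p = 0.928), the smallest SD among the 15 probes. Without centring of the arrays this mean was 0.07, so its direction rests on the centring. Obp47a read -0.12, -0.11 and 0.37 on replicates 1, 2 and 3, and was at -0.20 ± 0.15 in the Cy5 over Cy3 direction (SD, n = 3; limma adjusted p = 0.906), lower on 3 of 3 arrays. With the deposited signs Obp8a was at 0.03 ± 0.15 and Obp47a at 0.05 ± 0.28 (SD, n = 3 for each).

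Among the receptors, Ir47a read 0.16, 0.52 and 0.67 on replicates 1, 3 and 4 as deposited, above the array median on all 3 arrays. Its mean in the treated over untreated direction was 0.45 ± 0.26 (SD, n = 3; limma adjusted p = 0.732, unadjusted p = 0.0522), with an interval of -0.0066 to 0.90. Fitted among genes, the same mean had an interval of 0.06 to 0.84 (limma unadjusted p = 0.0289) and did not pass (limma adjusted p = 0.560). In that fit 8.73% of all 1444 genes had an unadjusted p under 0.05 (limma). Read as Cy5 over Cy3, its mean was -0.34 ± 0.44 (n = 3, SD; adjusted p = 0.906 by limma): replicate 1 lay above 0, and replicates 3 and 4 lay below. The direction for Ir47a therefore turned with the reading of the ratio.

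Or33a, the odorant receptor gene, read 0.23, 0.12, 0.11 and 0.36 on the 4 arrays, all above the array median. In the treated over untreated direction its mean was 0.20 ± 0.12 (SD, n = 4; limma adjusted p = 0.741, interval -0.08 to 0.49; exact sign-flip test, two-sided p = 0.125). In the Cy5 over Cy3 direction it was at -0.03 ± 0.26 (SD, n = 4; limma adjusted p = 0.986, interval -0.41 to 0.34).

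**Figure D4:**
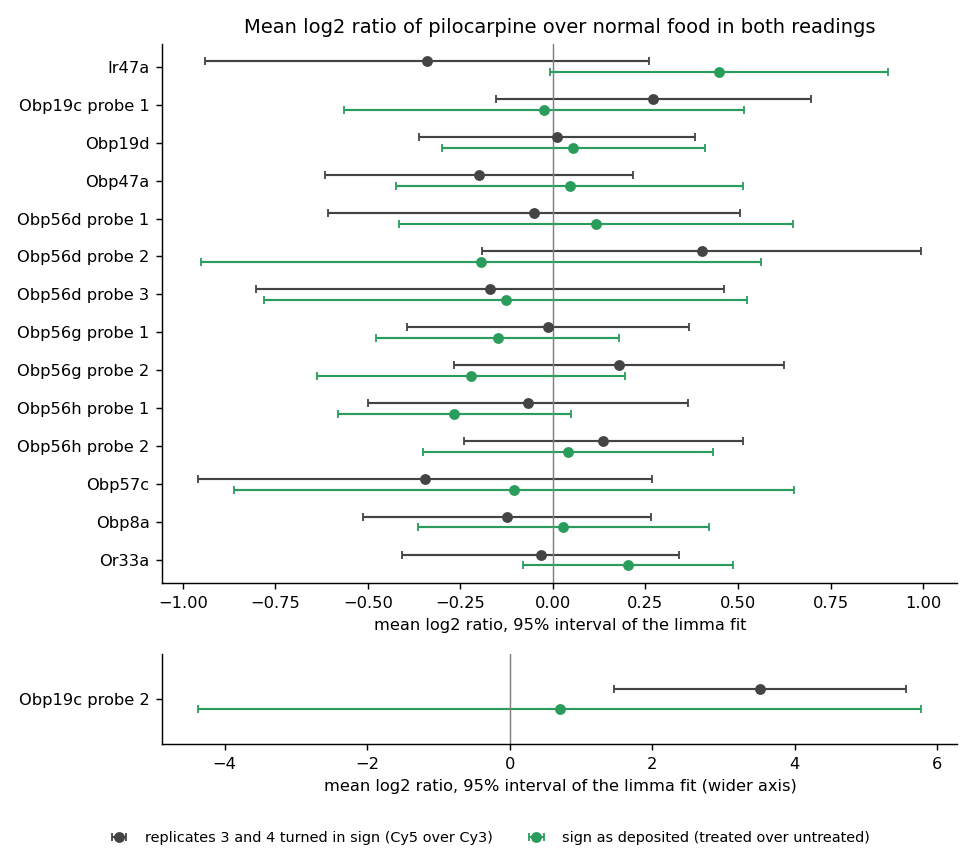
Mean log2 ratio of pilocarpine over normal food (x axis) with its 95% interval from the limma fit, for each of the 15 probes, with replicates 3 and 4 turned in sign (grey) or as deposited (green). All intervals include 0 except that of the second Obp19c probe in the Cy5 over Cy3 direction, from 1.46 to 5.56.

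The number of probes with the same sign on every array they were measured on was 5 of 15 in the Cy5 over Cy3 direction, beside 17.6% of all probes, and 4 of 15 in the other, beside 22.5%. In the first direction these were both Obp19c probes and the second Obp56d probe as higher (9.42% of all probes), and Obp8a and Obp47a as lower (8.21%). All 5 are among the 9 probes on 3 arrays, where 22.8% of all probes have 1 sign throughout. In the second direction they were Ir47a and Or33a as higher (10.4% of all probes), and the second Obp56g and the first Obp56h probe as lower (12.1%). That is 1 of 9 probes on 3 arrays, beside 31.2% of all, and 3 of 6 on 4 arrays, beside 16.0%, where the first direction had 0 of 6, beside 13.8%.

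Set against all probes, 14 of the 15 lay inside the bulk of the array, and the second Obp19c probe outside it. Without it the 14 means ranged from -0.35 to 0.40 in the Cy5 over Cy3 direction and from -0.27 to 0.45 in the other. A mean beyond 1 in size was found for 1 of the 15 probes in the first direction, beside 2.55% of all probes, and for 0 of 15 in the second, beside 3.2%. The median SD over arrays was 0.30 for probes with 1 listed gene and 0.38 for the others in the first direction, and 0.28 and 0.36 in the second.

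**Figure D5:**
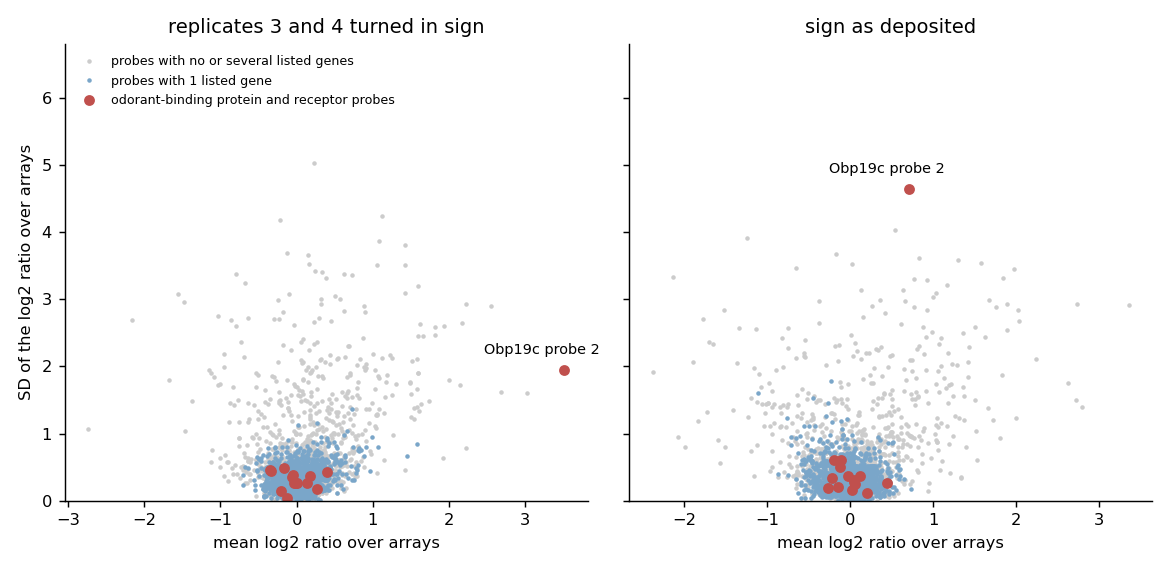
Mean (x axis) and SD over arrays (y axis) of the centred log2 ratio of all 3216 probes, in the Cy5 over Cy3 direction (left) and with the deposited sign (right). Of the red points 14 lie within -0.35 to 0.45, and the second Obp19c probe stands apart with a mean of 3.51 and an SD of 1.94 on the left and an SD of 4.64 on the right.

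The probes with 1 listed gene whose ratios were most like those of the second Obp19c probe were those of apolpp, Paics, an enzyme of purine synthesis, and CG14322, at root mean square differences of 2.40, 2.95 and 2.97 over the 3 arrays shared. The values of apolpp were 0.48, 1.94 and -1.53 on replicates 1, 2 and 3, smaller in size on each array, and -1.85 on replicate 4, where Obp19c has no value. Paics read 0.40, 1.29 and -0.82 on replicates 1, 2 and 3, and CG14322 read -0.14, 0.91 and -1.44. On replicate 1 CG14322 thus lay on the other side of the array median from the second Obp19c probe. A likeness over 3 arrays is a description and was chosen on the values themselves.

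Of a list of other genes that act in or around chemosensory cells, 20 were listed on the array and 5 had values on at least 3 arrays. None of the 5 passed in either direction (limma; 0 higher and 0 lower, lowest adjusted p 0.906 and 0.732). They were the lipid-binding genes Npc2a and Npc2b, the G protein genes Galphaq and Galphas, and the arrestin gene Arr1, which acts in photoreceptors as well as in olfactory neurons. Their means in the Cy5 over Cy3 direction lay between -0.22 for Npc2a and 0.24 for Arr1, with a median of 0.02. In the other direction they lay between -0.31 for Galphas and 0.10 for Arr1, with a median of 0.02. Galphas was below the array median on all 4 arrays, at -0.18, -0.31, -0.27 and -0.49.

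Markers gave little on which cells the RNA came from. Of the defining genes of antennal and chemosensory support cells, lush and Phk-3 were listed and neither had a value, so the makeup of the antennal tissue in the pools was not measured. Of the eye genes inaD and Arr1 had values. Of the 5 neuronal markers only nSyb was listed on the array, and it had no value. The 5 fat body markers with values were apolpp, FASN1, Lsp2, sxe2 and the yolk protein gene Yp2. Whether Yp2 marks the fat body in males was not tested. The mean of apolpp was 1.45 in the Cy5 over Cy3 direction, the others lying between -0.09 for sxe2 and 0.16 for Yp2. With the deposited signs apolpp was at -0.24 and the 5 lay between -0.48 and 0.0062, with a median of -0.24. The 4 muscle markers lay between -0.41 and 0.09 in the first direction and between -0.21 and -0.03 in the second. The gut markers Jon25Biii and Mal-A2 were at 0.10 and -0.26, and at 0.18 and -0.03. The testis marker ocn was at 0.52 and 0.60, the glial marker Gs2 at 0.09 and 0.09, and the haemocyte marker Col4a1 at 0.13 and -0.34. None of these passed in the fit of all probes (limma; lowest adjusted p 0.884 and 0.732 in the 2 directions), while apolpp passed in the Cy5 over Cy3 direction among probes with 1 listed gene and among genes. Their part in the ratios of the odorant-binding protein genes was not tested.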

How the data were processed

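The data are log2 ratios of the 2 channels of 4 two-colour cDNA arrays. Per the labels' design text, the authors quantified spots in GenePix Pro 6.0, normalized ratios in Acuity 4.0, and kept unsaturated, unflagged, even spots above background. Spots usable on 3 arrays went on to SAM 3.0. The genome build and the numerator of the ratio are not given in the sources used here. Array medians of the deposited log2 ratios were -0.14, -0.48, -0.29 and -0.42. Scanner intensities were not used here, so the signal over background of a spot is unknown and the number of arrays limits the precision.

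Cells at the ceiling of 16.61 (11, none in these genes) were dropped, the 2 adjacent spots of a probe averaged, and each array centred on its median over all probes. Both spots carry the same gene in all 7609 pairs that the annotation names. Of the 3216 probes on at least 3 arrays, 1504 have 1 gene in an old platform annotation, 12 several and 1700 none. Symbols were updated by gene ID through the RefSeq table (assembly Release 6 plus ISO1 MT), which matched all 15 probes; no coordinates are given because the array's build is unknown. Probes of several genes that include one of these families (4 listed, 1 on at least 3 arrays) were left out. Means were tested against 0 with limma 3.58.1 in R 4.3.3 (lmFit, eBayes, two-sided, Benjamini-Hochberg over all probes), after the code was tested on simulated data. The limma p-values rest on the spread between the 3 or 4 parallel sets with a value, drawn towards the spread shared by all features tested. Members and lists were chosen with earlier results of these data known. Every member is named, with each probe apart; other genes are named from lists, by likeness to the most changed probe, or where a count of 5 or fewer singles them out. Alternatives varied centring, features, arrays required, spots, ceiling cells, a dye term and the prior, and left out each replicate.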

Additional observations from a re-analysis of the deposited data

Results flagged for a closer look

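Of the 6 probes measured on all 4 arrays, tested in both directions (12 tests for 1 array far from the other three), 1 stood out. The second probe of Obp56g read -0.725 on replicate 3 with the deposited sign, while replicates 1, 2 and 4 lay between -0.08 and -0.0025. Chance marks about 1 in 20 such groups.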

How the results depend on the processing

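Both directions of the ratio were fitted as results of their own. The ratio on each array already pairs a treated and an untreated pool of 1 set, so the arrays form 1 group and no further pairing was made. Apart from leaving out replicates, 257 of 272 values of single probes and 44 of 48 counts, medians and gene values kept their direction and side of the threshold, or stayed within the spread or 1.5 times for counts. The cause of the changes given here was not tested, and all are of probes or genes that had not passed before, unless stated.

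In the Cy5 over Cy3 direction the count called moved from 0 to 3 among probes with 1 listed gene alone, where the second Obp19c probe (3.51) passed, and to 2 with genes averaged. Means that changed sign without centring were those of the first Obp56d probe (0.14), Obp8a (0.066), the third Obp56d probe (0.021) and the first Obp56g probe (0.0099). The last also did so when arrays were centred on probes with 1 listed gene (0.0063), and Obp19d did so on the second spot alone (-0.014). In the treated over untreated direction the median of the 15 means was -0.29 without centring. The first Obp56d probe (-0.165), Obp8a (-0.25), Or33a (-0.13), Obp47a (-0.26), Obp19d (-0.28) and the second Obp56h probe (-0.29) then lay below 0, and 237 genes passed, all as lower, against 0 with centring. The median over all 1444 genes was itself -0.31 without centring. The first Obp19c probe changed sign on the second spot alone (0.069) and Obp8a on the first (-0.0022).

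Leaving out each replicate in turn kept 99 of 120 means of single probes on their side, with 0 probes called in either direction (limma). In the Cy5 over Cy3 direction the ranges that crossed 0 were -0.1955 to 0.167 for the first Obp56d probe, -0.119 to 0.077 for Or33a, -0.183 to 0.084 for the first Obp56h probe, -0.14 to 0.0685 and -0.0037 to 0.27 for the first and the second Obp56g probe, and -0.066 to 0.12 for Obp19d. With genes averaged, 0 to 18 genes were called, against 2 on all arrays: 5 without replicate 1, 0 without replicate 2 or 4, and 18 without replicate 3. The Obp19c gene value, which had passed, lay between 1.56 and 2.44 and missed the threshold without replicate 2 or 4. In the treated over untreated direction the ranges were -0.0698 to 0.293, -0.41 to 0.156 and -0.417 to 0.0315 for the 3 Obp56d probes, -0.17 to 0.18 and -1.45 to 3.16 for the 2 Obp19c probes, and -0.77 to 1.67 for their average. They were -0.032 to 0.11 for Obp8a, -0.43 to 0.18 for Obp57c, -0.116 to 0.1275 for Obp47a, -0.0355 to 0.153 for Obp19d and -0.046 to 0.184 for the second Obp56h probe.

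Settings that need 4 arrays gave no value for the 9 probes on 3 arrays, nor did either spot alone for the second Obp19c probe. A gene average was not set against the single probes of a gene that has several. The alternatives of the gene fit, and leaving out the second Obp19c probe, were chosen after seeing the data. Signal over background is unknown here, so no limit of detection can be given, and 3 or 4 arrays limit the precision of each mean.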
